A study of Mus musculus with 6 samples.

Results

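Interferon-stimulated genes are the genes that cells switch on when an interferon binds its receptor. A list of 44 of them, listed by gene name, was followed in the mouse uterus on day 4 of pregnancy. All 44 were found among the 56748 gene identifiers of the deposited tables, and all 44 passed the filter on low counts that left 16737 genes for testing. They were split by name into 33 type I members, which are best known as targets of interferon alpha and beta, and 11 gamma-type members, which are best known as targets of interferon gamma. Many of the 44 respond to both.

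RNA was sequenced from 6 uterine samples, all collected at 1600 h on day 4, before implantation. In 3 of them, Zip10 cKO 1 to 3, the zinc importer gene Zip10 (Slc39a10) was conditionally knocked out in the uterus. The reference was 3 control samples, whose genotype is labelled WT. The sample labels give the tissue as uterus and the series design as endometrium. The Cre driver, the deleted exons, the strain, the age and whether each library is 1 animal were not given in the sources used here. Therefore p-values reflect the spread among these 6 samples alone, which may be technical. Also, the names of the deposited tables write the controls as Zip10-ff and the knockouts as Zip10-dd, which nothing in the sources spells out.

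As background, type I interferons signal through the receptor chains IFNAR1 and IFNAR2 to a complex that includes STAT2 and IRF9 and binds the interferon-stimulated response element (ISRE). Interferon gamma signals through IFNGR1 and IFNGR2 and acts on genes through the gamma-activated site (GAS). Around implantation the uterus is known to express interferon-stimulated genes in several mammals, and in mice interferon gamma from uterine natural killer cells is known to act on the vessels of the implantation site later in pregnancy.

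The promoters below show which letters the gene classes carry and where. RefSeq windows of the GRCm38.p6 build, 250 bases before to 50 after the gene start, were found for 34 of the 44 members, 24 type I and 10 gamma-type. The ISRE was searched on both strands as GAAA, any 2 bases and GAAA again, which reads TTTC, any 2 bases and TTTC on the other strand, and the GAS as TTCNNNGAA, which reads the same on both strands. Matches may overlap each other and the other motif. Capitals mark the matches, which are descriptions of letters and not shown to be sites. The lines run 5′ to 3′ on the strand of the gene. The first 4 are type I members and the last 4 gamma-type members.
Isg15, chr4:156200868-156200913 (minus strand): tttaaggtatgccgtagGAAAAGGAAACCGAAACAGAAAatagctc
Ifit1, chr19:34640777-34640821 (plus strand): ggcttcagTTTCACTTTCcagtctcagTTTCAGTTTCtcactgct
Ifit3, chr19:34583364-34583423 (plus strand): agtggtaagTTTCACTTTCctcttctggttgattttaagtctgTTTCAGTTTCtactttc
Ifit3b, chr19:34607760-34607819 (plus strand): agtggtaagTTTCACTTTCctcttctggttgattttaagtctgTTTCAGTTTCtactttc
Irf1, chr11:53769914-53769939 (plus strand): acagcctgatTTCCCCGAAatgatga
Gbp7, chr3:142530221-142530296 (plus strand): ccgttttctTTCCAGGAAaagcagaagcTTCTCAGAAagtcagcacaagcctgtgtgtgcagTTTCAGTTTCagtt
Igtp, chr11:58199501-58199538 (plus strand): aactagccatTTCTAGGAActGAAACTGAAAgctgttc
Irgm1, chr11:48871430-48871465 (minus strand): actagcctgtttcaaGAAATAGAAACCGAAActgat

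ISRE letters were present in 18 of the 34 members with a window (52.9%), against 1079 of all 27025 genes with a window (3.99%). By class they were present in 12 of 24 type I members and in 6 of 10 gamma-type members (60.0%). GAS letters were present in 10 of the 34 members (29.4%), against 2582 of all genes (9.55%), with 5 of 24 among the type I members (20.8%) and 5 of 10 among the gamma-type members. The ISRE letters therefore did not separate the classes, since gamma-type promoters held them about as often as type I promoters. The stretches of Ifit3 and Ifit3b printed above were identical in 60 of 60 bases, and their ISRE matches lie at the same spacing. Irf1 held a GAS match and no ISRE match, and Gbp7 and Igtp held both motifs. Psmb9 and Tap1 lie back to back on chromosome 17 with starts 226 bases apart, so that their windows share 275 bases, and neither motif was found there.

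The libraries held between 19643069 and 22809574 counts, of which 33072 to 43844 fell on the 44 members. Defining markers of the labelled tissue were present in every library. The epithelial marker Epcam averaged 70.1 ± 11.3 TPM (a share of all transcripts, which divides by gene length) in cKO libraries and 84.4 ± 3.84 TPM in controls, and the stromal marker Pdgfra 63.9 ± 6.82 TPM in cKO libraries and 55.9 ± 5.34 TPM in controls (SD, n = 3 each, as in all means below). The smooth muscle marker Myh11 averaged 500 ± 31.7 TPM in cKO libraries and 264 ± 97.0 TPM in controls. The endothelial marker Pecam1 averaged 95.8 ± 6.08 TPM in cKO libraries and 101 ± 13.4 TPM in controls. The defining immune markers given next were at lower levels. Not all immune markers were low. Named after their values were seen, the macrophage markers C1qa and C1qb averaged 159 ± 67.2 and 151 ± 71.4 TPM in cKO libraries. In controls these 2 averaged 104 ± 8.35 and 93.0 ± 15.8 TPM. The macrophage marker Adgre1 averaged 18.8 ± 11.9 TPM in cKO libraries and 9.31 ± 2.08 TPM in controls, and the T cell marker Cd3e 2.29 ± 1.83 TPM in cKO libraries and 1.17 ± 0.629 TPM in controls. The natural killer marker Ncr1 averaged 5.17 ± 1.06 TPM in cKO libraries and 5.86 ± 1.66 TPM in controls, and the plasmacytoid dendritic marker Siglech 1.56 ± 1.21 TPM in cKO libraries and 0.943 ± 0.387 TPM in controls. The library cKO 1 stood apart from the other 5, at 1.58 on the first axis of a multidimensional scaling of all genes tested, where the others lay between -0.77 and 0.02.

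The targeted gene Slc39a10 did not separate the groups. Its CPM values (counts scaled by library size, not by gene length) were 39.5, 72.5 and 79.8 in cKO libraries, against 54.6, 70.4 and 66.2 in controls, and the groups overlapped. The fold, cKO over control, was 1.00 with a 95% interval of 0.678 to 1.49, and a two-sided exact permutation test on the CPM gave p = 1, where 0.1 is the smallest p that 3 against 3 allows. Which exons were deleted is not given, so the gene's total does not check the labels, and every direction below is that of the libraries labelled Zip10 cKO.

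None of the 44 interferon-stimulated genes passed the test between cKO and control uteri. The call was an adjusted p under 0.05 in edgeR's quasi-likelihood test with Benjamini-Hochberg adjustment, fitted over all 16737 genes, and it was met by 0 genes of the table (0%), where the smallest adjusted p was 0.626. DESeq2 called 37 genes and limma-voom 0, and no member was among them. At an unadjusted p under 0.05, which 1081 genes met (6.46%, made up of 4.48% higher and 1.98% lower in cKO), the count of members was also 0. The lowest unadjusted p of a member in this fit was 0.0522, for Ifih1, and several alternative fits, given below, put members under 0.05. In 5 members (11.4%) all cKO libraries lay on one side of all controls in CPM, near the 12.7% of all genes tested that did so. Of these members 2 (Ifih1 and Eif2ak2) lay above the controls, where 6.93% of all genes did, and 3 (Ddx58, Cmpk2 and Irf9) lay below them, where 5.78% did. Fitted log2 fold changes in CPM, cKO over control, ran from -0.43 to 0.29, with a median of -0.09. Below 0 were 29 members (65.9%, against 50.6% of all genes tested), and 15 were above. On the log2(TPM + 1) scale 21 members were below 0, where the median of all genes tested was 0.05.

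The precision of these values bounds what could have been seen. For 42 of the 44 members the 95% interval of the fold lay within 2-fold in both directions, and for 22 it lay within 1.5-fold. The exceptions at 2-fold were Mx1 and Mx2, whose intervals were 0.524 to 2.01 and 0.497 to 1.11. The members' total counts over the 6 libraries ran from 397 to 14861.

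**Figure D1:**
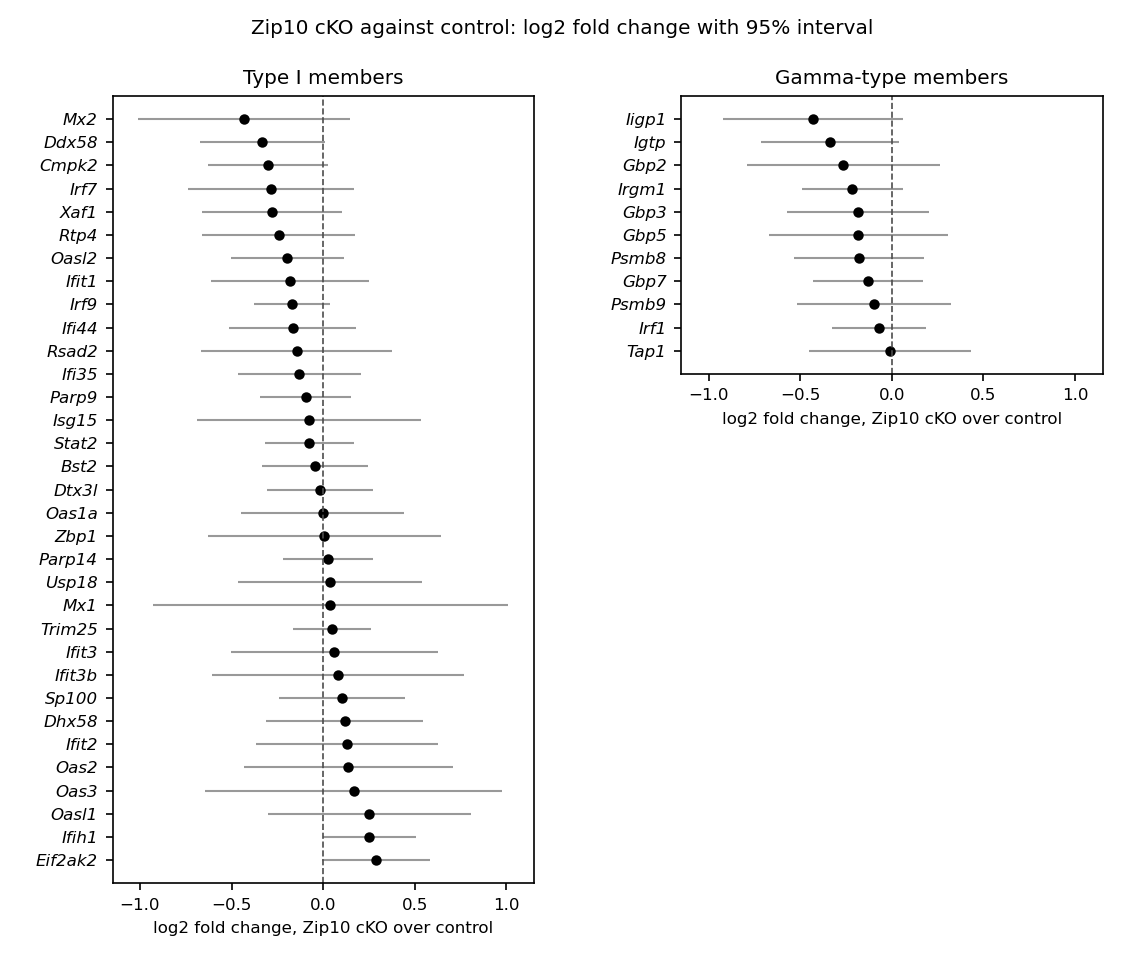
Fitted log2 fold change in CPM, cKO over control, of each of the 44 members (points) with its 95% interval (lines). The points lie between -0.43 and 0.29, all 11 gamma-type points lie below 0, and no member passed the test.

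Before implantation most of these genes were already well expressed, in either group. In controls 30 of the 44 lay above the median gene tested (11.3 TPM), 22 were at 20 TPM or more, and 7, all of them type I members, were under 5 TPM. The gamma-type members were the more evenly expressed class, with 9 of 11 at 20 TPM or more and a median of 30.8 TPM in controls, against 13 of 33 type I members and a median of 14.4 TPM. The order of single genes was led by Bst2, the membrane tether that holds budding virus on the cell, at 217 ± 32.4 TPM in cKO libraries and 212 ± 12.8 TPM in controls. It was followed by Psmb8, an immunoproteasome subunit, at 76.8 ± 12.1 TPM in cKO libraries and 80.5 ± 11.8 TPM in controls. Below them Xaf1, Oasl2, Ddx58 and Isg15 lay close together in controls, at 60.0 ± 6.12, 57.1 ± 7.56, 52.6 ± 10.5 and 52.1 ± 18.9 TPM, and neighbours in this order differed by less than their SDs. At the low end Oas3 was at 1.28 ± 0.410 TPM in cKO libraries and 1.01 ± 0.382 TPM in controls, and Mx1, a dynamin-like antiviral GTPase, at 1.74 ± 1.02 TPM in cKO libraries and 1.61 ± 0.1704 TPM in controls. RefSeq classes both Mx1 and Mx2 as transcribed pseudogenes in the reference mouse strain.

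**Figure D2:**
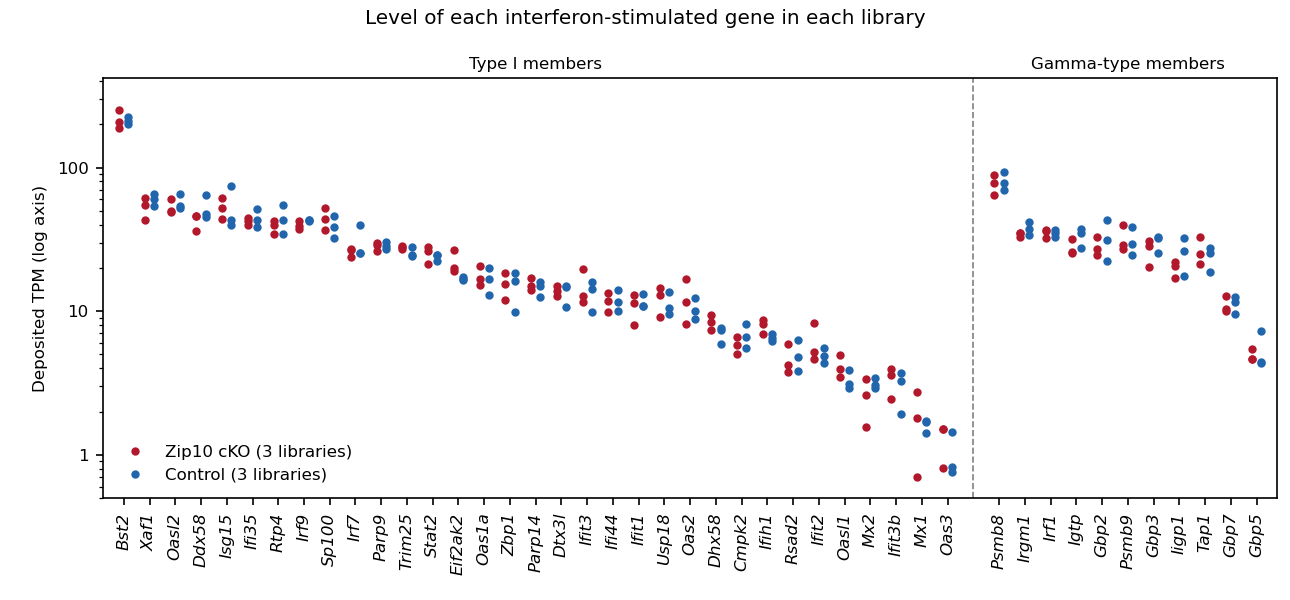
Deposited TPM on a log axis of each member in every library, with cKO libraries to the left of controls for each gene. Points of both groups lie close together along the whole range, from Oas3 at about 1.01 TPM in controls to Bst2 at 212 TPM.

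Interferon ligands were at or near the detection floor. Ifnb1 and the 7 other type I or lambda genes Ifna1, Ifna2, Ifna4, Ifna5, Ifna13, Ifna14 and Ifnl2 had 0 counts in all 6 libraries. Ifne, the type I interferon that the uterine epithelium makes without infection, was the ligand that passed the filter, with 21, 14 and 5 counts in cKO libraries against 16, 14 and 0 in controls, and a log2 fold change of 0.44 ± 0.87 (SE), which was -0.05 without cKO 1. Ifng, the gamma ligand, had 5, 2 and 7 counts in cKO libraries against 11, 4 and 7 in controls and was not tested. Ifnk, Ifnz and Ifnl3 had 2 counts each over all libraries. A group difference in the ligands was not detectable at this depth.

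Receptor chains were well above this level. Ifnar1, the signalling chain of the type I receptor, averaged 32.2 ± 2.21 TPM in cKO libraries and 26.6 ± 3.47 TPM in controls. Its CPM values were 89.5, 85.7 and 82.1 in cKO libraries against 67.0, 78.2 and 79.6 in controls, which did not overlap, and its log2 fold change was 0.19 ± 0.10 (SE), and edgeR's quasi-likelihood test gave it an adjusted p of 0.747. The partner chain Ifnar2 had a log2 fold change of 0.11 ± 0.11. The gamma receptor chains Ifngr1 and Ifngr2 had 0.26 ± 0.17 and -0.00 ± 0.11, and Ifngr1 was highest in cKO 1, at 63.8 TPM against 36.1 to 39.8 TPM in the other 5 libraries. For the lambda receptor chains the log2 fold changes were -0.14 ± 0.19 for Ifnlr1 and 0.15 ± 0.12 for Il10rb. None of the 6 passed the test, and 4 had a positive log2 fold change in CPM and 5 on the TPM scale, where Ifngr2 turned positive. Without cKO 1, Ifngr1 had 0.02 and Ifnar2 0.02.

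The transcription factors came next in the pathway. All 4 factors among the members had negative log2 fold changes in CPM, with a median of -0.12, though Stat2 and Irf1 turned positive on the TPM scale, where the median was -0.05. Irf9 (ENSMUSG00000002325), the DNA-binding part of the type I complex, was at 62.6, 69.6 and 70.6 CPM in cKO libraries, against 77.7, 74.5 and 76.0 CPM in controls. Its groups did not overlap, and its log2 fold change was -0.17 ± 0.09 (SE, unadjusted p = 0.0933, edgeR quasi-likelihood test). Irf7, the factor that amplifies type I interferon production, was at 34.1, 33.1 and 35.3 CPM in cKO libraries against 56.7, 34.09 and 34.003 CPM in controls. A single library, control 1, was high, and the other 5 lay within 33.1 to 35.3 CPM. Irf1, which carries the GAS letters shown above, was at 42.2, 52.9 and 52.6 CPM in cKO libraries against 52.0, 52.9 and 50.2 CPM in controls, so that cKO 1 was low and the rest were alike. Of the other signalling genes, Irf8, a factor of myeloid cells, had the lowest unadjusted p, 0.0142 in edgeR's quasi-likelihood test, with a log2 fold change of 0.35 ± 0.11 and an adjusted p of 0.747. Irf3, which starts interferon production downstream of nucleic acid sensing, had -0.19 ± 0.09, and Irf5, a factor downstream of Toll-like receptors, 0.31 ± 0.17.

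Nucleic acid sensors held 3 of the 5 members whose groups did not overlap in CPM (12.7% of all genes tested), and these 3 did not share a direction. In TPM 1 member did not overlap, Eif2ak2, where 12.9% of all genes did not. Ddx58 (RIG-I, ENSMUSG00000040296), which detects viral RNA ends, was at 85.1, 113 and 112 CPM in cKO libraries against 123, 152 and 116 CPM in controls. Its log2 fold change was -0.33 ± 0.15 (SE), and edgeR's quasi-likelihood test gave it an adjusted p of 0.747 (0.0554 unadjusted). Ifih1 (MDA5, ENSMUSG00000026896), the sensor of long double-stranded RNA, ran the other way, at 26.7, 24.4 and 28.4 CPM in cKO libraries against 22.6, 22.6 and 21.5 CPM in controls. Its log2 fold change was 0.25 ± 0.11. Eif2ak2 (PKR, ENSMUSG00000024079), the kinase that halts translation on double-stranded RNA, was at 71.9, 55.7 and 55.6 CPM in cKO libraries against 55.2, 47.1 and 47.5 CPM in controls, with a log2 fold change of 0.29 ± 0.13. The highest control lay just under the lowest cKO library, and cKO 1 stood above the rest. Dhx58, the regulator LGP2, had 0.12 ± 0.19 and Zbp1, a sensor of Z-form nucleic acid, 0.01 ± 0.28.

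Effectors of the type I class showed no shared direction. The OAS family includes enzymes that make the second messenger that activates RNase L, though not every member does. Its log2 fold changes ran from -0.19 ± 0.13 for Oasl2 to 0.25 ± 0.24 for Oasl1. Above 0 were 3 of 5 in CPM and 4 of 5 on the TPM scale, where Oas1a turned positive. Without cKO 1 or without control 2 the count above 0 was 2 of 5. The IFIT proteins, which bind foreign RNA, had 3 of 4 above 0 with a median of 0.07, but 0 of 4 without cKO 1 (median -0.17) and 1 of 4 without control 2 (median -0.15). Ifit3 was at 22.5, 14.1 and 14.9 CPM in cKO libraries against 20.5, 11.8 and 17.0 CPM in controls, and replicate 1 was the highest in either group. Its copy Ifit3b, with the same promoter stretch, followed the same order of libraries in cKO, at 5.23, 3.45 and 4.92 CPM, and had 4.97, 2.67 and 5.19 CPM in controls. Reads shared by such copies were split between them by the authors' counting, and both genes carried fractional counts in every library, so these levels are uncertain.

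ISG15, a ubiquitin-like protein that is attached to other proteins, is the best known uterine interferon response gene in ruminants. Isg15 (ENSMUSG00000035692) was at 22.8, 17.1 and 19.9 CPM in cKO libraries against 30.9, 15.3 and 16.8 CPM in controls. Control 1 was the highest and control 2 the lowest of all 6, so the cKO libraries lay inside the range of the controls. The log2 fold change was -0.08 ± 0.27, and it was 0.06 on the log2(TPM + 1) scale. The other genes of this group, Usp18 (which removes ISG15), Trim25, Parp9, Dtx3l and Parp14, had log2 fold changes between -0.10 and 0.05.

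Of the 10 other antiviral effectors 8 had negative log2 fold changes in CPM, with a median of -0.16, though Bst2 turned positive on the log2(TPM + 1) scale, where the median was -0.07, and 6 of 10 were negative without control 1. Cmpk2, a mitochondrial nucleotide kinase, was at 12.1, 12.3 and 11.4 CPM in cKO libraries against 15.9, 12.7 and 15.5 CPM in controls, with no overlap and a log2 fold change of -0.30 ± 0.14 (unadjusted p = 0.0661, edgeR quasi-likelihood test). Rsad2 (viperin), the radical enzyme that lies next to Cmpk2 in the genome, had -0.14 ± 0.23, with overlapping groups. The lowest value of this group was Mx2 at -0.43 ± 0.25, from 2.99, 2.53 and 3.82 CPM in cKO libraries against 4.61, 3.36 and 4.63 CPM in controls. Xaf1, a pro-apoptotic factor, had -0.28 ± 0.17, Rtp4, a regulator of the interferon response, -0.24 ± 0.18, and Sp100, a nuclear body protein, 0.10 ± 0.15. Ifi44 had -0.17 ± 0.15.

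All 11 gamma-type members had negative log2 fold changes in CPM, between -0.43 and -0.01 with a median of -0.18, and 8 of 11 on the TPM scale, where Irf1, Psmb9 and Tap1 turned positive and the median was -0.07. None of them passed the test. The type I members had 18 of 33 below 0 and a median of -0.02 in CPM. On the log2(TPM + 1) scale 13 of 33 were below 0, with a median of 0.06. All genes tested had 50.6% below 0 and a median of -0.002 in CPM. Their median on the log2(TPM + 1) scale was 0.05, near that of the type I members. In none of the 11 did the cKO libraries lie wholly below the controls. The largest part was the 7 interferon-inducible GTPases, the guanylate-binding proteins and the immunity-related GTPases, which attack the vacuoles of intracellular pathogens: 7 of 7 were below 0 in CPM and on the TPM scale, with a median of -0.22 in CPM and -0.15 on the log2(TPM + 1) scale. Without control 3 the count was 6 of 7, and the median was -0.13. The members are not independent of each other, since they share the same 6 libraries.

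Iigp1, an immunity-related GTPase, was at 44.01, 36.1 and 42.6 CPM in cKO libraries against 60.6, 36.6 and 68.0 CPM in controls. Control 2 lay among the cKO libraries and the other controls above them. The log2 fold change was -0.43 ± 0.21, and edgeR's quasi-likelihood test gave it an adjusted p of 0.747 (0.0791 unadjusted). Igtp, which shares the letters of both motifs, was at 34.3, 45.2 and 34.7 CPM in cKO libraries against 56.3, 38.5 and 49.4 CPM in controls, with a log2 fold change of -0.34 ± 0.17. Irgm1, a regulator of the other immunity-related GTPases, was at 50.05, 50.4 and 51.2 CPM in cKO libraries against 68.5, 50.5 and 57.1 CPM in controls. Its cKO libraries were nearly level, control 2 was level with them, and the log2 fold change was -0.22 ± 0.12. Gbp2 was at 46.3, 44.7 and 57.8 CPM in cKO libraries against 61.2, 39.7 and 77.9 CPM in controls, with a log2 fold change of -0.27 ± 0.23. In each of these 4 genes control 2 was the lowest control. Gbp3 had a log2 fold change of -0.19 ± 0.17.

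All 3 antigen processing members were below 0 in CPM, with a median of -0.10, but 1 of 3 was on the TPM scale or without control 1, where the medians were 0.06 and 0.11. Psmb8 was at 60.0, 48.1 and 53.3 CPM in cKO libraries against 75.1, 51.3 and 56.5 CPM in controls, a log2 fold change of -0.18 ± 0.15. Psmb9, a second immunoproteasome subunit, was at 20.4, 19.2 and 22.3 CPM in cKO libraries against 28.2, 17.0 and 21.0 CPM in controls, a log2 fold change of -0.10 ± 0.18. Tap1, a chain of the transporter that carries peptides to MHC class I, was at 61.8, 41.8 and 49.1 CPM in cKO libraries against 61.5, 39.1 and 52.9 CPM in controls, a log2 fold change of -0.01 ± 0.19. Although Psmb9 and Tap1 start from opposite sides of the same short stretch, control 1 was well above the other libraries only for Psmb9.

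**Figure D3:**
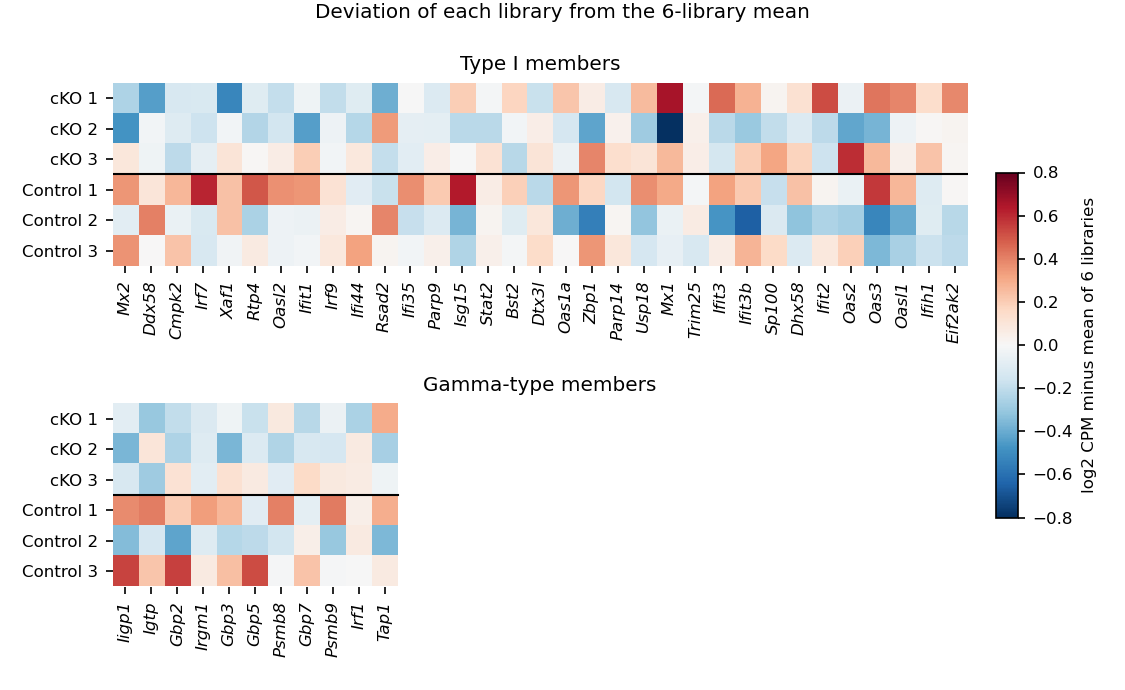
Log2 CPM of each member (columns) in each library (rows) minus its mean over the 6 libraries, cKO libraries above controls. Control 1 holds the highest value of 20 of the 44 members and control 2 the lowest value of 18, so the control rows differ among themselves.

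Single libraries moved the members together. Control 1 was the highest of the 6 libraries for 20 of 44 members (45.5%, against 22.6% of all genes tested), and control 2 the lowest for 18 (40.9%, against 14.2% of all genes tested). No member was highest in cKO 2, where 12.4% of all genes tested were. The median deviation of the gamma-type members from their 6-library mean was -0.12, -0.13 and 0.06 on the log2 scale in cKO libraries 1 to 3, against 0.29, -0.21 and 0.22 in controls 1 to 3. For the type I members it was -0.01, -0.15 and 0.06 in cKO libraries, against 0.21, -0.11 and 0.00 in controls. In both classes, then, control 2 lay below the other controls and, for the gamma-type members, below every cKO library. As a description over these 6 libraries, the median correlation between pairs was 0.52 within the gamma-type members and 0.27 within the type I members. It was 0.36 across the classes and 0.0005 over all pairs of genes tested. All of these pairs share library and depth. The median SD within groups was 0.257 for type I members, 0.265 for gamma-type members and 0.200 for all genes tested, in log2 CPM.

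Leaving out control 2 gave a gamma-type median of -0.31 and a type I median of -0.13, with 6 members at an unadjusted p under 0.05 in edgeR's quasi-likelihood test (Rtp4, Cmpk2, Gbp2, Igtp, Iigp1 and Irgm1, all lower in cKO) and 0 at an adjusted p under 0.05. In that fit 4.87% of all 17099 genes tested had an unadjusted p under 0.05, and 1.09% had one and were lower in cKO. Leaving out control 1 gave a gamma-type median of -0.11 with 9 of 11 below 0, and a type I median of 0.03. Leaving out cKO 1, the library that stood apart, gave medians of -0.21 and -0.11, with 10 of 11 gamma-type members below 0.

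Several cell type marker lists also differed in level between the libraries, and in such bulk samples fewer cells of a type and less RNA per cell cannot be told apart. The summed level of 13 T and natural killer cell markers was 85.8 to 113 CPM in cKO libraries and 52.5 to 76.3 CPM in controls. The groups did not overlap, 12 of 13 markers were above 0, and their median log2 fold change was 0.61, or -0.10 with 6 of 13 above 0 without cKO 1. Ncr1 was the marker below 0, at -0.26 ± 0.27, and the 4 markers whose cKO libraries all lay above the controls, named after their values were seen, were Klrb1c (1.35 ± 0.37), Gzma (0.76 ± 0.19), Prf1 (0.71 ± 0.22) and Nkg7 (0.29 ± 0.14). The sum of 10 macrophage markers was 318 to 669 CPM in cKO libraries and 274 to 345 CPM in controls, with 10 of 10 above 0 and a median of 0.57, or 0.22 without cKO 1. The 13 stromal markers summed to 16237 to 19202 CPM in cKO libraries and 11645 to 15321 CPM in controls, with 9 of 13 above 0. Much of this sum was collagen, with Col1a1, Col1a2 and Col3a1 at 3805, 3367 and 5823 CPM in cKO 1. Pdgfra had 0.11 ± 0.10, and the 4 below 0 were Vim (-0.02), Thy1 (-0.09), Hoxa10 (-0.16) and Hoxa11 (-0.26). The 12 smooth muscle markers summed to 14145 to 19265 CPM in cKO libraries and 8538 to 15078 CPM in controls, with 12 of 12 above 0. The 13 epithelial markers summed to 885 to 1487 CPM in cKO libraries and 1141 to 1597 CPM in controls, with 2 of 13 above 0. The 12 endothelial markers summed to 1186 to 1364 CPM in cKO libraries and 1217 to 1503 CPM in controls, with 11 of 12 below 0 in CPM and 8 of 12 on the TPM scale, and a median of -0.12, or -0.04 without cKO 1. Of these, named after their values were seen, Emcn had -0.36 ± 0.12 and Esam -0.28 ± 0.12, each with all cKO libraries below the controls. No marker of these 6 lists was at 0 in any library. Control 2 had the lowest gamma-type median and the lowest T and natural killer, macrophage and smooth muscle sums. It did not have the lowest stromal, epithelial or endothelial sum. The highest T and natural killer, macrophage, smooth muscle and stromal sums were in cKO 1, whose gamma-type median was below the 6-library mean. The part of these sums in the members' values was not tested.

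**Figure D4:**
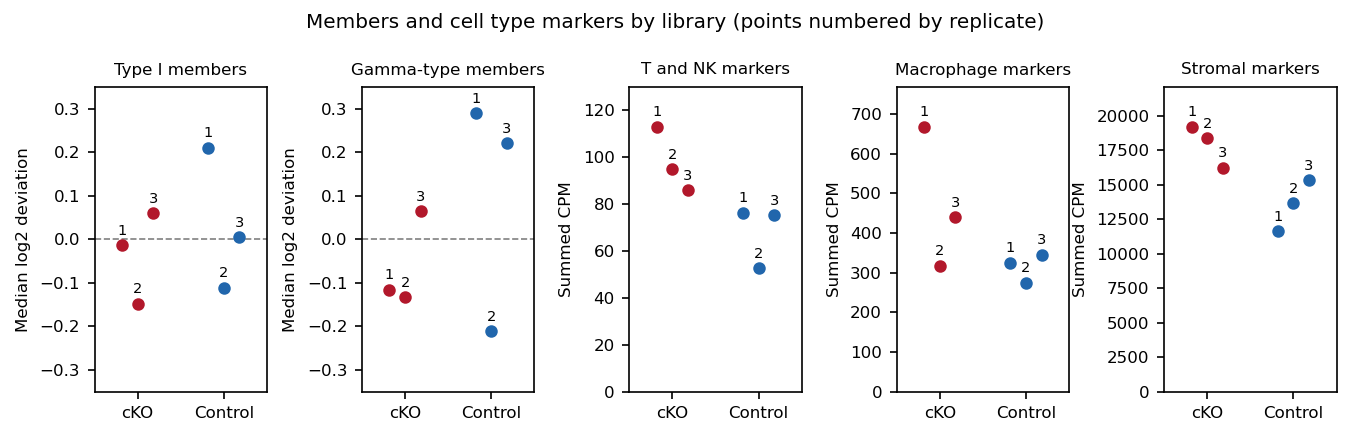
Per-library median deviation of type I and gamma-type members (log2 CPM) and summed CPM of T and natural killer, macrophage and stromal markers, cKO libraries left of controls and points numbered by replicate. Control 2 lies below controls 1 and 3 in both member classes, while cKO 1 lies above all others in the macrophage sum at 669 CPM.

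The rest of the pathway showed no shared direction. Of 107 further genes of the pathway 91 were tested, of which 46 had positive and 45 negative log2 fold changes in CPM, with 56 positive on the TPM scale and 39 without cKO 1. Of the 91, 4 (3 higher and 1 lower in cKO) had an unadjusted p under 0.05, where 6.46% of all genes tested did (4.48% higher and 1.98% lower). Among 33 other interferon-stimulated genes tested, 17 were above 0 and 16 below, with a median of 0.01, which was 0.08 with 21 above on the log2(TPM + 1) scale and -0.03 with 11 above without cKO 1. The lowest p in this list belonged to Ifi207, a DNA-binding IFI200 protein, with a log2 fold change of 0.61 ± 0.26, Helz2, a helicase coactivator, with 0.33 ± 0.14, and Slfn8, a Schlafen family gene, with 0.66 ± 0.34 (0.12 without cKO 1). Among 25 other gamma-responsive genes, 8 were above 0 and 17 below, with a median of -0.09. That median was -0.0053 with 14 below 0 without cKO 2, -0.0091 with 13 below without control 1, -0.19 with 19 below without control 2, and -0.0085 with 13 below on the log2(TPM + 1) scale. Tgtp2, another GTPase of the immunity-related family, had the lowest unadjusted p of that list, 0.0103 in edgeR's quasi-likelihood test, at an adjusted p of 0.747. It was at 18.1, 18.3 and 19.8 CPM in cKO libraries against 36.7, 22.0 and 26.5 CPM in controls, without overlap, and its log2 fold change was -0.60 ± 0.18. Its near copy Tgtp1 had -0.40 ± 0.19, and reads shared between such copies make both values uncertain. Ciita, the master regulator of MHC class II genes and a target of interferon gamma, ran the other way at 0.41 ± 0.20.

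Of the 7 inhibitors of the pathway 4 were above 0 and 3 below, with a median of 0.00 in CPM and 0.12 on the log2(TPM + 1) scale. Socs3, which blocks cytokine receptors, had 0.18 ± 0.12, the phosphatase Ptpn6 0.22 ± 0.23 (-0.07 without cKO 1) and the RNA-editing enzyme Adar 0.08 ± 0.09. Of 10 genes that induce interferon 8 were above 0, with a median of 0.06, and 5 were above 0 without control 1. Among them Tlr9, a receptor for DNA, had 0.92 ± 0.44, the adaptor Myd88 -0.32 ± 0.16 and Tlr7, a receptor for RNA, 0.59 ± 0.34 in CPM but -0.40 on the log2(TPM + 1) scale. Tlr7 was at 7.46 CPM in cKO 1 and between 2.94 and 4.82 CPM in the other 5 libraries, and in TPM it averaged 2.57 ± 1.71 in cKO libraries and 3.44 ± 0.704 in controls. Tlr9 was at 2.76 TPM in cKO 1 and between 0.62 and 1.12 TPM in the other 5 libraries. None of these genes passed the test.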

How the data were processed

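Poly(A) RNA of 6 uterine samples was sequenced after fragmentation and random priming, per the labels' protocols. Tools listed without settings in the submitters' processing notes were RSEM 1.3.3 and STAR 2.7.10a, fastp 0.23.2, and edgeR 3.38.4 under R 4.2.1, with the GRCm39 build. Per the file headers, the authors deposited RSEM expected counts and TPM per gene for each library. RSEM splits reads shared by similar genes, so an expected count need not be whole.

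Expected counts were rounded and tested with edgeR 4.0.16 (R 4.3.3): TMM scaling, filterByExpr with a count minimum of 10, and the robust quasi-likelihood test, two-sided, with Benjamini-Hochberg adjustment over 16737 genes. CPM values are after TMM, and errors of log2 fold changes are SEs. Depth was 19643069 to 22809574 counts per library, and intervals cover the spread between these samples only. Samples were grouped by their titles. No 2 libraries agreed within sampling noise. The test script was tested on simulated data, where edgeR recovered 22% of 1.5-fold and 66% of 2-fold changes. DESeq2 recovered 34% and 78% of them. False calls there were 9 for edgeR and 42 for DESeq2.

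Gene names came from a GENCODE M21 table, another build than the files', which matched 52073 of 56748 identifiers. Promoters came from RefSeq on GRCm38.p6, and no coordinate of the files' build was used. The members and the pathway and marker lists were chosen with earlier results of these data known. Named were all 44 members, the ligands and the receptors, up to 3 genes of lowest p in each other pathway list, Slc39a10 and 8 defining markers. Another gene that the rule names is not reported here. Alternatives were DESeq2 1.42.0, limma-voom and limma-trend (limma 3.58.1), other scaling factors, no filter, TPM with a pseudocount of 1 or 0.1, removal of a trend with gene length, a replicate block and leaving out each library.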

Additional observations from a re-analysis of the deposited data

How the results depend on the processing

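With 3 libraries a group, 0 members were called under any of the 15 alternatives, where the lowest adjusted p of a member was 0.517 (edgeR, without cKO 2), and 21 of 44 members had the same sign in all of them. Over all genes edgeR called 0. DESeq2 called 37, edgeR with no filter on low counts 15, and edgeR with a library left out 0 to 2, the 2 without cKO 1. limma-voom called 0, with 1074 genes at an unadjusted p under 0.05. Members at an unadjusted p under 0.05 numbered 0 in limma-voom, with RLE scaling and without cKO 1. They numbered 3 with no filter (Ddx58, Eif2ak2 and Igtp), where 5.29% of all genes had one. Without cKO 2 they numbered 4 (Ifih1, Ddx58, Eif2ak2 and Igtp), where 8.97% had one. With the length trend removed they were Ddx58 and Cmpk2, where 5.41% had one. Fits other than these, the replicate block and the one without control 2 gave 1 each. The count of members whose groups did not overlap, 5, was 1 on TPM with either pseudocount (2.27%, against 12.9% of all genes tested). It was 3 with the length trend removed (6.82%, against 10.6%). It was 4 (9.09%) in DESeq2 and with RLE scaling, upper quartile scaling or no filter, against 9.71%, 13%, 13.4% and 9.67%. With a library left out it was 5 to 13. It was 11 without cKO 3 (25.0%, against 26.0% of all genes) and 13 without control 2 (29.5%, against 21.6%). Without cKO 1 or control 3 it was 5 (11.4%, against 19.7% and 24.5%). Without cKO 2 or control 1 it was 7 (15.9%, against 26.9% and 20.9%). The gamma-type median ran from -0.31 to -0.11 and the type I median from -0.13 to 0.03 with a library left out. TPM moved the median of all genes by 0.05 to 0.06. The cause of these differences was not tested.

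Members changed sign under several of the alternatives. On TPM with a pseudocount of 1 the values were Isg15 0.057, Stat2 0.068, Bst2 0.020, Oas1a 0.086, Dtx3l 0.051, Irf1 0.0069, Psmb9 0.055 and Tap1 0.13, and with 0.1 they were Isg15 0.058, Stat2 0.070, Mx1 -0.065, Bst2 0.020, Oas1a 0.091, Dtx3l 0.056, Irf1 0.0070, Psmb9 0.057 and Tap1 0.13. limma-voom gave Mx1 -0.15 and Oas1a 0.014, upper quartile scaling Zbp1 -0.0063, and removal of the length trend Isg15 0.030, Bst2 0.055, Oas1a 0.031, Parp14 -0.13 and Trim25 -0.075.

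Over the fits that leave out 1 library, the lowest and highest values of members that changed sign were -0.15 and 0.046 for Bst2, -0.0060 and 0.28 for Dhx58, -0.13 and 0.063 for Dtx3l, -0.32 and 0.072 for Gbp5, -0.24 and 0.038 for Ifi35, -0.15 and 0.25 for Ifit2, -0.18 and 0.24 for Ifit3, -0.17 and 0.24 for Ifit3b, -0.13 and 0.028 for Irf1, -0.26 and 0.30 for Isg15, -0.36 and 0.41 for Mx1, -0.17 and 0.19 for Oas1a, -0.19 and 0.34 for Oas2, -0.036 and 0.60 for Oas3, -0.046 and 0.093 for Parp14, -0.25 and 0.11 for Psmb9, -0.39 and 0.029 for Rsad2, -0.041 and 0.21 for Sp100, -0.16 and 0.0042 for Stat2, -0.17 and 0.14 for Tap1, -0.0086 and 0.095 for Trim25, -0.10 and 0.26 for Usp18, and -0.22 and 0.19 for Zbp1.

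The replicate block, which pairs equal replicate numbers, called 0 genes (1354 at an unadjusted p under 0.05, 1081 without it), with medians of -0.02 and -0.17 and with Mx1 at -0.087 and Oas1a at 0.021. Ddx58, Eif2ak2 and Iigp1 were the members at an unadjusted p under 0.05 in that edgeR fit, where 8.09% of all genes tested had one. The correlations of same-numbered samples were 0.092, 0.254 and 0.189. Both cKO 2 and cKO 3 correlated best with the control of their own number, and cKO 1 with control 3 (0.119). All 3 same-numbered correlations were positive, while those of other pairs ran from -0.333 to 0.119. Whether equal numbers pair the samples cannot be told from these values, and the main fit did not pair them. The counts of members below 0, the values of gene lists on TPM or with a library left out, and the shares of all genes whose groups did not overlap under each alternative were added after the data were seen.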

Other observations

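Members of a family that were not in the list of 44 were looked at after their values were seen. The GTPases Gbp4, Gbp6, Gbp8, Gbp9, Irgm2, Ifi47, Tgtp1 and Tgtp2 had negative log2 fold changes in CPM, cKO over control, in 8 of 8, with a median of -0.19, and none passed edgeR's quasi-likelihood test at an adjusted p under 0.05. On the TPM scale the median was -0.04 and the count 6 of 8, since Gbp6 and Gbp9 turned positive, as they did without cKO 2, and without control 1 or control 3 it was 7 of 8. The MHC class II genes Ciita, H2-Aa, H2-Ab1, H2-Eb1 and Cd74, which interferon gamma can also induce, had positive log2 fold changes in 5 of 5 in CPM and on the TPM scale, with a median of 0.38, which was 0.12 without cKO 1, and none passed the test. The summed macrophage markers were also highest in cKO 1, and their part in these values was not tested.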
